A study of Mus musculus with 4 samples.

Results

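The comparison is between regulatory T (Treg) cells that lacked both CD226 and TIGIT and Treg cells that lacked CD226 alone, 8 days into acute graft-versus-host disease. Its members are the 708 Treg-origin cells of the 2 libraries compared, 376 from the double-knockout library and 332 from the CD226-knockout library, out of 18103 kept cells in these libraries and 36140 in all 4 libraries of the series. Cells were assigned by barcoded antibodies: r is the log2 of CD45.1 over CD45.2 antibody counts, each plus 1, and cells with r below -0.6 were taken as Treg-origin and cells with r above 2.2 as conventional. Conventional cells were split into 2813 CD4 and 3415 CD8 cells in the double-knockout library, and 3098 CD4 and 2600 CD8 cells in the CD226-knockout library, according to which of Cd4 and the sum of Cd8a and Cd8b1 had more UMIs. UMIs, the molecule counts of a droplet library, were added up within each class of each library and expressed as CPM, UMIs per 1e+06 UMIs of the class.

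The recipients were BALB/c mice irradiated with 900 cGy. They received bone marrow depleted of T cells of wild-type C57BL/6 mice that carried both CD45 forms, together with CD4+ Foxp3-GFP+ CD25hi Treg cells from CD45.2+ CD45.1- C57BL/6 donors, either CD226-/- TIGIT-/- (double knockout) or CD226-/- TIGIT+/+ (CD226 knockout). Wild-type CD45.1+ CD45.2- CD4 and CD8 conventional T cells followed 2 days later, and donor TCRb+ H-2Kb+ cells were then sorted from recipient spleens. The labels name no cell-type-specific deletion in the Treg donors, and the conventional cells and the bone marrow were wild type in each library. Each genotype was 1 library, pooled from 3, so the comparison has no replicate check: no test was possible, and the bracketed 95% intervals (exact conditional binomial for ratios, Clopper-Pearson for shares, Poisson for levels) cover counting error only. The double-knockout library came from lane 4 and the CD226-knockout library from lane 3, so lane and TIGIT status cannot be told apart. The wild-type conventional cells of the same 2 libraries served as the reference for what all cells of a library shared, although they also met Treg cells of different genotype.

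CD226 and TIGIT are paired receptors of T and NK cells that bind the same ligands, CD155 and CD112. CD226 carries an activating signal and TIGIT an inhibitory one, and TIGIT is a known marker of suppressive Treg cells. In graft-versus-host disease, donor T cells attack recipient tissue, and transferred Treg cells are known to restrain them.

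Depth and labels were checked first. Treg-origin cells were shallower than conventional cells, with medians of 4604 UMIs in the double-knockout and 4784 in the CD226-knockout library, against 7785 and 8056 in CD4 cells. The whole class summed to 2049179 and 1747477 UMIs, and the CD4 class to 25441326 and 28912612, so the Treg-origin values carry more counting error. Cd226 stood at 4.39 CPM in double-knockout and 4.01 CPM in CD226-knockout Treg-origin cells (9 and 7 UMIs), against 31.2 CPM in the wild-type and 32.5 CPM in the TIGIT-knockout library and 66.5 and 72.5 CPM in the CD4 conventional cells beside them. Tigit stood at 5.86 and 5.15 CPM (12 and 9 UMIs), which is no check of the TIGIT genotype, because 3' reads need not cover the deleted sequence. Foxp3 was found in 23.9% and 26.5% of Treg-origin cells, or 12.4% and 11.4% after each cell was thinned to 2000 UMIs, against 0.286% and 0.356% of thinned CD4 conventional cells. The class therefore held its defining transcript, though 21 and 14 of its cells had more Cd8 than Cd4 UMIs. The 2 libraries shared 26 kept barcodes, with 49 and 57 cells within 0.2 of the Treg-origin limit. Markers of other cells were low in both Treg-origin classes for CD8 cells (21.5 and 29.8 CPM over 2 genes) and NK cells (18.1 and 19.5 CPM over 6). So were those of neutrophils (4.88 and 5.72 CPM over 8) and macrophages (32.7 and 78.4 CPM over 10). Markers of B cells (218 and 2307 CPM over 7) and red cells (38.6 and 1004 CPM over 7) were not low in the CD226-knockout class. T cell markers stood at 6979 and 7399 CPM, the 2 CD4 markers at 147 and 145 CPM and Treg markers at 1603 and 1605 CPM. The values of r just inside and just outside that limit were -0.60 and -0.58 in the double-knockout and -0.61 and -0.59 in the CD226-knockout library, and those at the conventional limit 2.207 and 2.198, and 2.2 and 2.199.

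Treg-origin cells formed a similar share of kept cells in both libraries, while the conventional cells around double-knockout Treg cells held more CD8 cells. Treg-origin cells were 4.15% [3.75, 4.58] of kept cells in the double-knockout and 3.67% [3.29, 4.08] in the CD226-knockout library. CD8 cells made up 54.8% [53.6, 56.1] and 45.6% [44.3, 46.9] of the conventional cells with a CD4 or CD8 assignment. In the other 2 libraries this CD8 share was 43.3% for wild type and 48.4% for TIGIT knockout. Cells with r between the limits, which can hold bone-marrow progeny and doublets, numbered 434 in the double-knockout and 971 in the CD226-knockout library.

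Most large ratios were found in Treg-origin cells and few in the wild-type cells beside them. In Treg-origin cells 5171 genes averaged 20 CPM or more, of which 120 lay past 1.5-fold higher in the double knockout (2.32%) and 80 past 1.5-fold lower (1.55%). In CD4 cells 4 of 5096 genes lay past it higher (0.0785%) and 0 lower (0%), and in CD8 cells 3 of 5040 higher (0.0595%) and 4 lower (0.0794%). A smaller class has more counting error, and how much of the spread that makes up was not tested. The SD of log2 ratios over genes was 0.34 in Treg-origin, 0.11 in CD4 and 0.12 in CD8 cells. For TIGIT knockout over wild type it was 0.26 in Treg-origin cells. At a mean of at least 100 CPM, 1499 genes were left in Treg-origin cells, of which 6 lay past the fold higher (0.4%) and 8 lower (0.534%). Those 6 included Ccl3, Ccl4, Cxcr6, Lgals3 and Ctla4, and the 8 were Il7r, Emb, Lgals7, Ddit4, Igkc, Jchain, Ighm and Hbb-bs. In the CD226-knockout class 1 cell held 2316 of 2404 Igkc UMIs, 1 held 390 of 390 Jchain UMIs and 1 held 905 of 929 Hbb-bs UMIs, and without the 5 richest cells the ratio was 0.708 for Igkc and 0.918 for Hbb-bs. Ighm held 73.6% in 5 cells, so 4 of the 8 rest on few cells.

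The 4630 genes measured in all 3 classes were then divided by where they differed. A gene was called Treg-only when it lay past 1.5-fold in Treg-origin cells and its levels were within 15% of each other, larger over smaller, in CD4 and in CD8 cells. By this rule 84 genes were Treg-only higher (1.81%) and 22 Treg-only lower (0.475%). A gene was called shared when its levels differed by more than 25%, larger over smaller, in the same direction in all 3 classes, which held for 2 genes higher (0.0432%) and 2 lower (0.0432%). The reverse pattern, over 25% in CD4 and CD8 cells and within 15% in Treg-origin cells, held for 0 genes higher (0%) and 2 lower (0.0432%), and 0 genes (0%) differed by over 25% in opposite directions in Treg-origin and conventional cells, whichever way the Treg-origin cells went. The mean log2 ratio over the conventional classes was subtracted from that of Treg-origin cells to rank the Treg-only genes. Of these 106 genes, 2 averaged 100 CPM or more in all 3 classes, Cxcr6 and Lgals3, and the others rest on fewer UMIs.

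**Figure D1:**
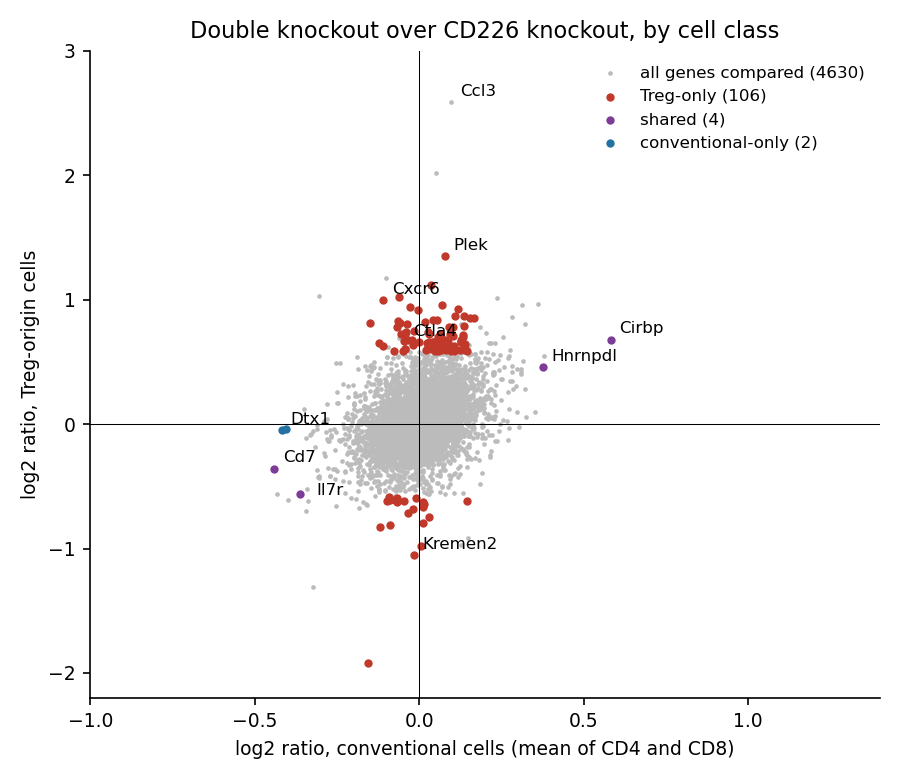
Log2 ratio of CPM (double knockout over CD226 knockout, with 1 CPM added) in Treg-origin cells on the vertical axis against the mean of conventional CD4 and CD8 cells on the horizontal axis, 1 point per gene. The 106 Treg-only genes lie in 2 bands above and below 0 with little spread along the horizontal axis, Cirbp and Hnrnpdl lie to the upper right, and 2 genes fall outside the axes.

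Cxcr6, a chemokine receptor of effector and tissue-resident T cells, had the most UMIs of the Treg-only genes named by rank. Lgals3, outside that rank, had more (1409 and 761 UMIs). It stood at 325 CPM in double-knockout and 163 CPM in CD226-knockout Treg-origin cells (666 and 284 UMIs), a ratio of 2 [1.74, 2.31]. In CD4 cells Cxcr6 stood at 382 and 388 CPM and in CD8 cells at 258 and 296 CPM. The share of thinned Treg-origin cells with a Cxcr6 UMI was 34.7% [29.8, 40.0] against 21.6% [17.2, 26.5], while it was 48.1% and 48.9% in CD4 cells. In Treg-origin cells with a Foxp3 or Ikzf2 UMI the Cxcr6 ratio was 1.85, and in those without it was 2.56, a division made after seeing the data. The Cxcr6 difference was therefore present in the number of cells with the transcript, and the double-knockout Treg-origin level lay nearer to that of the CD4 conventional cells. The Treg-origin levels of Cxcr6 in the wild-type and TIGIT-knockout libraries, 191 and 228 CPM, lay between the 2.

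Among the other Treg-only higher genes, Plek encodes pleckstrin, a protein kinase C substrate of blood cells. It stood highest by rank at 46.9 against 17.7 CPM (2.64 [1.74, 4.10]), with 76.4 and 74.0 CPM in CD4 cells, and its ratio was 4.58 after thinning to 2000 UMIs. Slamf7, a receptor of cytotoxic and activated lymphocytes, stood at 42.0 against 23.5 CPM (1.79 [1.22, 2.66]). Irf8, a transcription factor of the interferon regulatory family, stood at 37.1 against 21.2 CPM (1.75 [1.17, 2.67]). In Treg-origin cells with r from -1.5 to -0.6 the ratio was 1.21 [0.65, 2.28] for Slamf7 and 1.21 [0.59, 2.52] for Irf8. Below -1.5 it was 2.09 for Slamf7 and 1.86 for Irf8. Each of these transcripts was measured on fewer than 100 UMIs in the richer library, so the size of its difference is loosely set. Pdcd1, the gene of the inhibitory receptor PD-1, was Treg-only as well at 127 against 71.5 CPM (1.77 [1.43, 2.21]), with 182 and 166 CPM in CD4 and 140 and 150 CPM in CD8 cells. Lgals3, which encodes galectin-3, stood at 688 against 435 CPM (1.58 [1.44, 1.73]), with 1132 and 1152 CPM in CD4 cells. Pdcd1 and Lgals3 lie outside the fixed rank and were chosen after their values were seen, as were Ccl3, Ccl4, Ifng, Il7r, Emb, Lgals7, Ddit4, Rbm3 and Hspa8.

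The remaining Treg-only higher genes by rank were low in level. Aspm and Cep55, needed at the spindle and at the final cut between daughter cells, stood at 40.5 against 20.6 CPM (1.97 [1.32, 2.99]) and 40.0 against 22.3 CPM (1.79 [1.21, 2.70]). The histone gene Hist1h4h stood at 30.3 against 16.6 CPM (1.82 [1.16, 2.94]). Below a CD45 ratio of -1.5 the Cep55 ratio was 1.18 [0.705, 2.02] and that of Hist1h4h 1.22 [0.665, 2.31], so these differences lay mainly in the cells above it (2.84 and 2.78). Acap2, an ARF6 GTPase-activating protein, had a ratio of 2.24 [1.47, 3.48], and Ltn1, the ubiquitin ligase of stalled ribosomes, 1.95 [1.19, 3.30]. Ahcyl1, which regulates IP3 receptors, had a ratio of 1.99 [1.31, 3.09] and the potassium-dependent sodium-calcium exchanger gene Slc24a5 1.788 [1.149, 2.838]. By the rule, the CD4 and CD8 levels of these Treg-only genes were within 15% of each other between the libraries.

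Treg-only lower genes were fewer and lower in level. Kremen2, a receptor of the WNT antagonist DKK1, stood at 19.0 against 40.6 CPM (0.468 [0.308, 0.702]), but its ratio was 0.939 after thinning to 2000 UMIs. Arid5a, an RNA-binding protein that stabilises inflammatory transcripts, stood at 33.7 against 60.7 CPM (0.555 [0.404, 0.759]), and Syt11, a synaptotagmin of vesicle traffic, at 41.5 against 68.7 CPM (0.604 [0.452, 0.804]). Hsd17b10, a mitochondrial dehydrogenase, stood at 55.1 against 86.4 CPM (0.638 [0.496, 0.820], and 0.424 thinned), and Txk, a Tec-family kinase of T cells, at 23.9 against 38.9 CPM (0.614 [0.417, 0.900]). The other ratios were 0.490 for Fam220a, 0.564 for the GMP reductase gene Gmpr2, 0.583 for the sterol carrier gene Stard4, 0.642 for the Rab prenyltransferase subunit gene Rabggtb, 0.560 for Zfp263, 0.617 for the mitochondrial import gene Tomm6 and 0.640 for Dnajc24. Fam220a had a ratio of 0.901 [0.448, 1.85] below a CD45 ratio of -1.5 and 0.197 above it, and Zfp263 of 1.05 and 0.340. Below -1.5 the intervals also spanned 1 for Txk (0.85), Rabggtb (0.900), Syt11 (0.783), Hsd17b10 (0.874), Dnajc24 (0.801) and Gmpr2 (0.627). Above it these ratios were 0.427, 0.425, 0.408, 0.543, 0.533 and 0.51. Kremen2, Stard4, Arid5a and Tomm6 had intervals below 1 in the cells below -1.5. Tomm6 turned to 1.28 after thinning. In the whole class the intervals of all these Treg-only lower genes lay below 1, which is no test, because the genes were ranked as extremes. Ighm also met the rule but was left out of the ranks for its few cells.

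**Figure D2:**
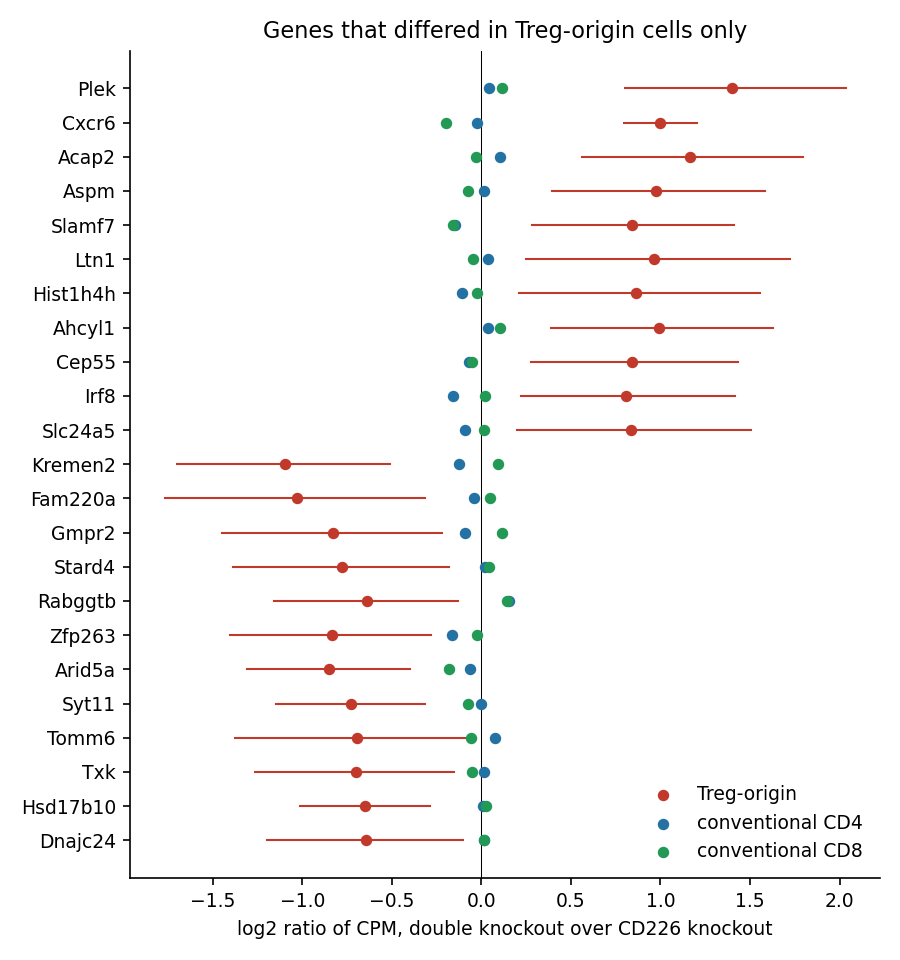
Log2 ratio of CPM, double knockout over CD226 knockout, for 23 Treg-only genes named by rank, with points for the 3 classes and red lines for the 95% counting interval in Treg-origin cells. The Treg-origin points lie far to the right or left while the CD4 and CD8 points of the same genes stay close to 0.

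The antibody signal within the Treg-origin class differed between the libraries and moved with several of these genes. At a CD45 ratio below -1.5, where CD45.2 was clearest, lay 203 of 376 double-knockout cells (54.0%) and 131 of 332 CD226-knockout cells (39.5%). The cells between -1.5 and -0.6 numbered 173 and 201. On both sides of -1.5, Cxcr6 was higher in the double knockout, at 429 against 184 CPM below it (2.33 [1.91, 2.86]) and 220 against 148 CPM above it (1.49 [1.21, 1.84]). Plek (2.36 and 2.17), Acap2 (1.97 and 2.42) and Cirbp (1.53 and 1.64) also had ratios above 1 on both sides. Pdcd1 went both ways, at 206 against 73.6 CPM below -1.5 (2.80 [2.06, 3.87]) and 47.0 against 70.1 CPM above it (0.671 [0.456, 0.979]). Lgals3 likewise stood at 999 against 463 CPM below -1.5 (2.16 [1.90, 2.45]) and 374 against 417 CPM above it (0.898 [0.780, 1.03]). Pdcd1 and Lgals3 were therefore higher in the cells with the clearest CD45.2 signal and not in the others. Cd226, whose source in these CD226-/- cells was not tested, had 5 and 6 UMIs below -1.5 and 4 and 1 above it, at 4.86 and 8.50 CPM and 3.92 and 0.96 CPM.

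**Figure D3:**
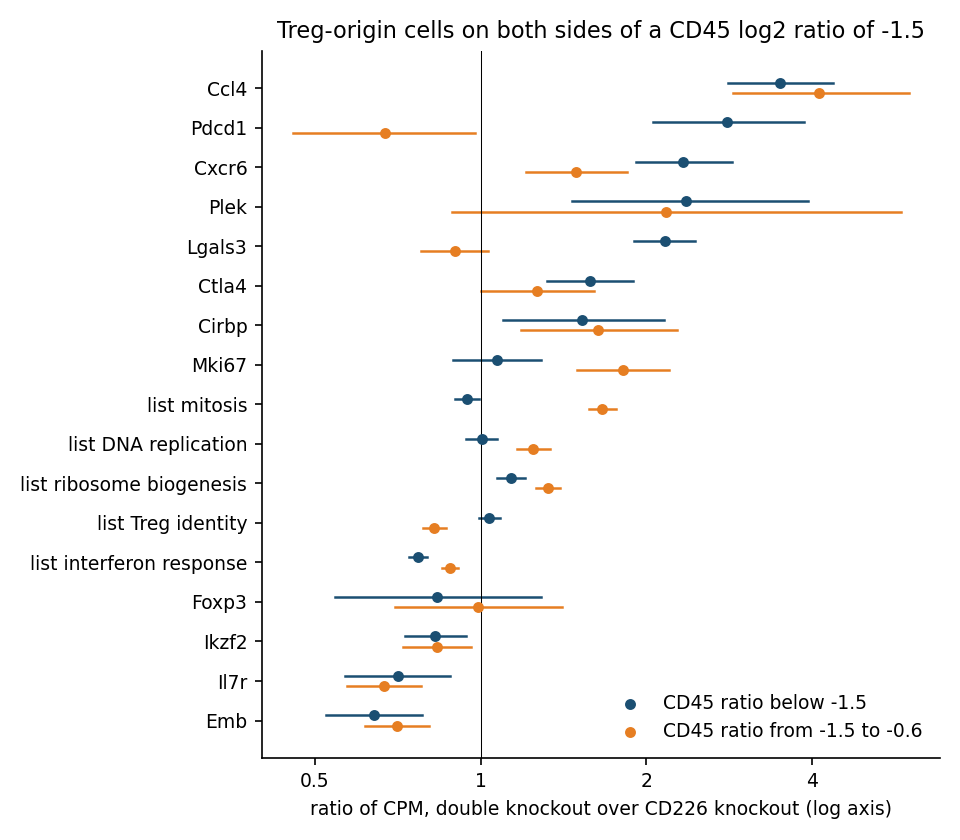
Ratio of CPM, double knockout over CD226 knockout, on a log axis for selected genes and gene lists in Treg-origin cells with a CD45 log2 ratio below -1.5 (blue) and from -1.5 to -0.6 (orange), with 95% counting intervals. Cxcr6, Il7r, Emb and the interferon list lie on 1 side of 1 in both sets of cells, whereas Pdcd1, Lgals3 and the mitosis list do not.

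Mitosis genes were higher in double-knockout Treg-origin cells and slightly lower in the wild-type cells around them. All 23 measured members of a 25-gene list had a higher level in the double knockout, with a median log2 ratio of 0.34 against 0.02 over the 5171 genes. Their summed level was 3344 CPM in double-knockout and 2639 CPM in CD226-knockout Treg-origin cells (1.27 [1.22, 1.31]), against ratios of 0.971 [0.963, 0.978] in CD4 and 0.955 [0.949, 0.961] in CD8 cells. Of the 23 genes, 3 lay past 1.5-fold higher, against 2.32% of all 5171 genes: Cep55, the anaphase activator Cdc20 (103 against 65.2 CPM, 1.578 [1.251, 2]) and the cytokinesis kinesin Kif23 (60.0 against 37.2 CPM, 1.61 [1.19, 2.21]). Mki67, the proliferation marker Ki-67, stood at 296 against 209 CPM (1.41 [1.24, 1.61]), and the lowest ratio, 1.06 [0.848, 1.34], belonged to the spindle factor Tpx2. In all 23 the log2 ratio of Treg-origin cells lay above that of CD4 and of CD8 cells, as it did for 49.1% of all genes compared.

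The mitosis difference lay in the Treg-origin cells with the less clear CD45.2 signal. Below a CD45 ratio of -1.5 the list stood at 3537 against 3741 CPM (0.946 [0.899, 0.995]), and from -1.5 to -0.6 at 3149 against 1893 CPM (1.66 [1.57, 1.76]). The low value was thus that of CD226-knockout cells from -1.5 to -0.6. After thinning to 2000 UMIs, 62 of 354 double-knockout cells (17.5% [13.7, 21.9]) and 47 of 315 CD226-knockout cells (14.9% [11.2, 19.3]) held at least 10 mitosis UMIs, with 16 and 12 cells within 1 UMI of that limit, and the median cell held 1 in both libraries. The share of dividing cells so defined differed by less than its counting intervals. Across the 4 libraries the Treg-origin mitosis level was 3219 CPM in wild type, 3759 in TIGIT knockout, 2639 in CD226 knockout and 3344 in double knockout, so the CD226-knockout library was the lowest. DNA replication genes, which act in S phase before mitosis, were higher for 17 of 19 members in Treg-origin cells (1.14 [1.09, 1.199]), but also in CD8 cells (1.07 [1.06, 1.08]), and not in CD4 cells (0.986 [0.976, 0.995]). Mcm7, a subunit of the replicative helicase, was the 1 member past 1.5-fold, at 109 against 71.5 CPM (1.52 [1.22, 1.91]), while the other helicase subunits Mcm2 to Mcm6 had ratios from 0.958 to 1.03.

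Interferon-stimulated genes were lower in double-knockout Treg-origin cells, and by less in the conventional cells. Of 23 measured members 22 were lower and 1, Irf1, higher (128 against 116 CPM, 1.11 [0.921, 1.34]), with a summed level of 6112 against 7391 CPM (0.827 [0.807, 0.848]). The ratios were 0.963 [0.952, 0.975] in CD4 and 0.937 [0.925, 0.949] in CD8 cells. Past 1.5-fold lower lay 4 members, against 1.55% of all 5171 genes. They were Ifit3 (27.8 against 48.1 CPM, 0.579 [0.406, 0.820]) and Ifit1 (48.8 against 77.2 CPM, 0.632 [0.483, 0.824]), which bind viral RNA, Usp18 (0.598 [0.389, 0.912]), which removes ISG15 from proteins, and Irf7 (63.9 against 101 CPM, 0.6311 [0.4996, 0.7956]), a transcription factor of the type I response. Over 30% of the UMIs of Ifit3, Ifit1 and Usp18 in the richer library lay in 5 cells. The members not past 1.5-fold included Isg15 (270 against 348 CPM, 0.776 [0.690, 0.872]), which had nearly the same ratio in CD4 (0.789) and CD8 cells (0.820), Bst2 (0.806 [0.714, 0.909]) and Ifi27l2a (2800 against 3563 CPM, 0.786 [0.758, 0.815]). In CD4 cells Irf7 had the lowest ratio of the measured members.

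The interferon difference was not confined to 1 side of the antibody scale or to Treg-origin cells. The list ratio was 0.770 [0.742, 0.798] below a CD45 ratio of -1.5 and 0.880 [0.851, 0.909] above it. Among the 17 members measured in all classes, 12 were lower in every class (70.6%), against 20.3% of all genes compared, and the same number lay lower in Treg-origin cells than in both conventional classes, against 36.9% of all genes. In thinned cells the median number of interferon UMIs per 2000 was 11 in double-knockout and 14 in CD226-knockout Treg-origin cells. The levels in the other libraries, 6507 CPM in wild type and 7230 CPM in TIGIT knockout, lay between the 2. In cells with both CD45 forms the list went the other way (1.39 [1.36, 1.42]), as did its Treg-origin ratio of TIGIT knockout over wild type (1.11 [1.09, 1.14]). The cells with both CD45 forms also differed in makeup, with neutrophil markers at 8369 against 1748 CPM and B cell markers at 2742 against 148 CPM. Whether this bears on the list was not tested.

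Treg identity genes held nearly the same summed level over the whole class, but not on both sides of the antibody scale. Of 15 measured members 5 were higher and 10 lower, at 3804 against 3958 CPM in sum (0.961 [0.930, 0.993]), and their median log2 ratio was -0.11. The list ratio was 1.04 [0.991, 1.08] below a CD45 ratio of -1.5 and 0.823 [0.785, 0.864] above it. Foxp3, the factor that defines Treg cells, stood at 58.1 against 64.1 CPM (0.906 [0.694, 1.18]), and Ikzf2, the Helios gene of stable Treg cells, at 437 against 505 CPM (0.864 [0.787, 0.950]). Ikzf2 was lower on both sides of -1.5 (0.828 and 0.833). Ctla4, the checkpoint receptor that strips CD80 and CD86 from presenting cells, was the highest member, at 281 against 178 CPM (1.58 [1.37, 1.82]). It was not Treg-only by rule, because its levels differed by over 15% in both conventional classes. In CD4 cells it was higher as well, at 53.1 against 45.7 CPM, and in CD8 cells lower, at 29.0 against 36.0 CPM. Its ratio was 1.58 below a CD45 ratio of -1.5 and 1.27 [1.002, 1.61] above it, and it was 1.74 in cells with a Foxp3 or Ikzf2 UMI but 0.766 in those without. In the other libraries the Ctla4 level was 205 CPM for wild type and 201 CPM for TIGIT knockout.

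Among the other identity genes, the costimulatory receptors Tnfrsf4 (727 against 678 CPM, 1.07), Tnfrsf18 (652 against 668 CPM, 0.975), Tnfrsf9 (1.05) and Icos (1.07) had intervals that span 1. So did the IL-2 receptor chains Il2ra (0.924) and Il2rb (1.02), the Ikaros factor Ikzf4 (0.953), Nrp1 (0.800), the folate receptor-like gene Izumo1r (0.898) and the integrin chain Itgae (0.698), which was the lowest member. Capg, an actin-capping protein, stood at 406 against 565 CPM (0.719 [0.655, 0.789]), and Klrg1, a receptor of terminally differentiated cells, at 73.2 against 103 CPM (0.711 [0.568, 0.888]). Capg stood at 176 against 216 CPM in CD8 cells, and Klrg1 at 6.80 against 14.7 CPM in CD4 and 11.1 against 15.4 CPM in CD8 cells, so these 2 were lower in wild-type cells as well. The members Lrrc32 and Gpr83 were under 20 CPM.

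Suppressive and repair factors were lower for 7 of 11 measured members, with a median log2 ratio of -0.30, although the summed level, which Gzmb dominates, was alike (1.01 [0.981, 1.05]). The lower genes quoted here also include a member that averaged under 20 CPM and is not among the 7. Il10, an immunosuppressive cytokine, stood at 47.8 against 58.9 CPM (0.811 [0.609, 1.08]). Ebi3, a subunit of IL-35 (0.801), Tgfb1 (0.857), the repair factor gene Areg (0.799) and the gene of the ectonucleotidase CD39, Entpd1 (35.1 against 48.6 CPM, 0.722 [0.520, 1.001]), had intervals that reach 1, as had Nt5e (0.715) and Fgl2 (1.12). Areg rested on few cells, with 89.3% of its double-knockout and 68.8% of its CD226-knockout UMIs in 5 cells. Without those cells Areg stood at 3.97 against 14.7 CPM (0.270 [0.105, 0.618]). Lag3, an inhibitory receptor for MHC class II, stood at 92.7 against 122 CPM (0.761 [0.622, 0.929]). Penk, which encodes an opioid precursor, stood at 35.6 against 60.7 CPM (0.587 [0.430, 0.799]) with 74.5% of its CD226-knockout UMIs in 5 cells. Gzmb, which encodes granzyme B, stood at 3475 against 3331 CPM (1.04 [1.01, 1.08]) and Prf1 at 49.3 against 41.2 CPM (1.196 [0.876, 1.64]). Prdm1, which encodes Blimp-1, was the highest member at 40.5 against 30.9 CPM (1.31 [0.919, 1.88]). Of the CD226 and TIGIT receptors and ligands only the related receptor Cd96 passed 20 CPM in Treg-origin cells, at 51.7 against 42.9 CPM (1.21 [0.888, 1.64]), and the ligand gene Pvr was near the floor at 7.81 and 7.44 CPM.

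Inhibitory receptors were higher in sum, through Pdcd1, Ctla4 and the exhaustion-associated factor gene Tox (50.7 against 30.9 CPM, 1.64 [1.17, 2.33]). The 6 measured members summed to 608 against 451 CPM (1.35 [1.23, 1.48]), and the ratio was 1.08 in CD4 and 0.938 in CD8 cells. On the antibody scale the list stood at 1.51 [1.35, 1.70] below -1.5 and 0.872 [0.747, 1.02] above it. Havcr2, the TIM-3 gene, stood at 34.2 against 26.9 CPM (1.27 [0.865, 1.88]) and the B and T lymphocyte attenuator gene Btla at 22.9 against 21.7 CPM (1.05 [0.673, 1.66]).

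The chemokine genes Ccl3 and Ccl4 and the cytokine gene Ifng, chosen after their values were seen, were higher in double-knockout Treg-origin cells and came from few cells. Of the 11 measured Th1 and chemokine genes 6 were higher and 5 lower. The summed ratio was 1.17 for the whole class, 1.05 below a CD45 ratio of -1.5 and 0.909 above it. Below -1.5 the list stood at 4592 against 4357 CPM, and above it at 915 against 1006 CPM. More of the double-knockout cells lay below -1.5 (54.0% against 39.5%), so the whole-class ratio also carries that mix. Ccl3 and Ccl4, which encode chemokines that draw in T cells and monocytes, stood at 274 against 44.6 CPM (6.13 [4.83, 7.88]) and 325 against 79.5 CPM (4.08 [3.39, 4.93]), with 46.7% and 44.4% of the double-knockout UMIs in 5 cells. Without the 5 richest cells of each library, Ccl3 was 148 against 11.7 CPM (12.6 [8.04, 21.0]) and Ccl4 183 against 20.5 CPM (8.92 [6.30, 13]). Those cells held 74.4% and 74.8% of the CD226-knockout UMIs, so leaving them out raised the ratios, whose size is no check. The double-knockout levels without them, 148 and 183 CPM, still lay above the full CD226-knockout levels of 44.6 and 79.5 CPM. In all, 57 and 17 Treg-origin cells held a Ccl3 UMI. Ccl4 stood at 261 CPM in the wild-type library and 136 CPM in the TIGIT-knockout library, so the wild-type level lay near the double knockout's. Ifng, the interferon-gamma gene, stood at 133 against 58.4 CPM (2.28 [1.81, 2.89]), and at 89.8 against 35.6 CPM without those cells. Of the genes past 1.5-fold in Treg-origin cells, 10 of the 120 higher and 23 of the 80 lower had over 30% of the richer library's UMIs in 5 cells. The cytokine gene Ccl1 (16.1 against 110 CPM) held 91.2% in 5 cells and the type 2 cytokine gene Il13 96.1%. The 7 markers of B cells summed to 218 against 2307 CPM, and the 7 of red cells to 38.6 against 1004 CPM, and their part in the lower genes other than their own was not tested.

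Shared shifts were smaller and led by RNA-binding proteins. Cirbp encodes a cold-inducible RNA-binding protein and was higher in every class, at 107 against 66.4 CPM in Treg-origin (1.61 [1.28, 2.03]), 93.7 against 61.8 CPM in CD4 and 98.3 against 65.7 CPM in CD8 cells. Hnrnpdl, which encodes an RNA-binding splicing factor, stood at 180 against 131 CPM (1.38 [1.16, 1.63]), 225 against 176 CPM and 232 against 176 CPM in the same order. Rbm3, a cold-inducible relative of Cirbp, stood at 1969 against 1545 CPM (1.27 [1.21, 1.34]), 2172 against 1776 CPM and 2010 against 1676 CPM, just short of 25% in the conventional classes. Hspa8, a constitutive HSP70 chaperone, was lower in every class, at 1647 against 1949 CPM (0.845 [0.806, 0.887]), 1752 against 2092 CPM and 1830 against 2084 CPM. The 2 genes shared lower by rule were Cd7, a T cell surface receptor gene (49.8 against 64.1 CPM, 0.777 [0.588, 1.03] in Treg-origin cells), and Fam26f (17.1 against 25.7 CPM, 0.663 [0.414, 1.06]), and their Treg-origin intervals span 1.

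The promoters of the 2 genes shared higher are shown because cold-responsive transcription of mouse Cirbp has been tied to a short upstream element, the octamer TCCCCGCC, which was looked for on both strands. Sequences are from the RefSeq-based table of GRCm38.p6, 250 bases before to 50 bases after a start site, with matches in capitals. The table holds 2 Cirbp windows, and the one printed, which holds a match, is chr10:80167589-80167888 on the plus strand. The other lies at chr10:80167921-80168220, and the Hnrnpdl window is chr5:100039173-100039472 on the minus strand.
Cirbp: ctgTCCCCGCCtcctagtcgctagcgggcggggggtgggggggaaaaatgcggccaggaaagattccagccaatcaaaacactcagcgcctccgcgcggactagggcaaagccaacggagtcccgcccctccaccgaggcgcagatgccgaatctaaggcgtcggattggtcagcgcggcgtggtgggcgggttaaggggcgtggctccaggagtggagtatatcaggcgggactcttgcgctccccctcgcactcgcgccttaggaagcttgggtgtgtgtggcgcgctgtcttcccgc
Hnrnpdl: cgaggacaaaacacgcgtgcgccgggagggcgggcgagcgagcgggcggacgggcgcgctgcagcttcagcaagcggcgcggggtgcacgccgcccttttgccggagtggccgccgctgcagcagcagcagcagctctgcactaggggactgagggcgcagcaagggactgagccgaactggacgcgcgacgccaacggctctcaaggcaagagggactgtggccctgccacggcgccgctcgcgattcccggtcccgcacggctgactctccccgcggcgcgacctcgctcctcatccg
The printed Cirbp window held 1 match, beginning at its base 4, while the other Cirbp window and the Hnrnpdl window held 0 each, and 1768 of 32851 promoter windows of this length (5.38%) held the octamer. The search was chosen after the values were seen, and a match describes these letters only.

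The genes higher in all classes went the other way in the other pair of libraries that differ in TIGIT. Cirbp in Treg-origin cells stood at 63.0 CPM in TIGIT knockout and 71.99 CPM in wild type, and Rbm3 at 1226 and 1518 CPM, with CD4 and CD8 cells in the same order. Hnrnpdl in Treg-origin cells stood at 138 and 168 CPM. Fam26f was lower in TIGIT knockout than in wild type as well, at 18.1 and 22.6 CPM in Treg-origin, 22.6 and 22.9 CPM in CD4 and 24.8 and 27.2 CPM in CD8 cells. Hspa8 (1840 and 2034 CPM) and Cd7 (51.3 and 53.9 CPM) were lower in CD8 cells only. Across the 4 libraries, Cirbp, Rbm3 and Hnrnpdl were highest in the double-knockout library in each of the 3 classes. The 2 lane 4 libraries were the highest and the lowest for Cirbp and Rbm3 in every class. Lane and TIGIT status cannot be told apart for these levels.

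**Figure D4:**
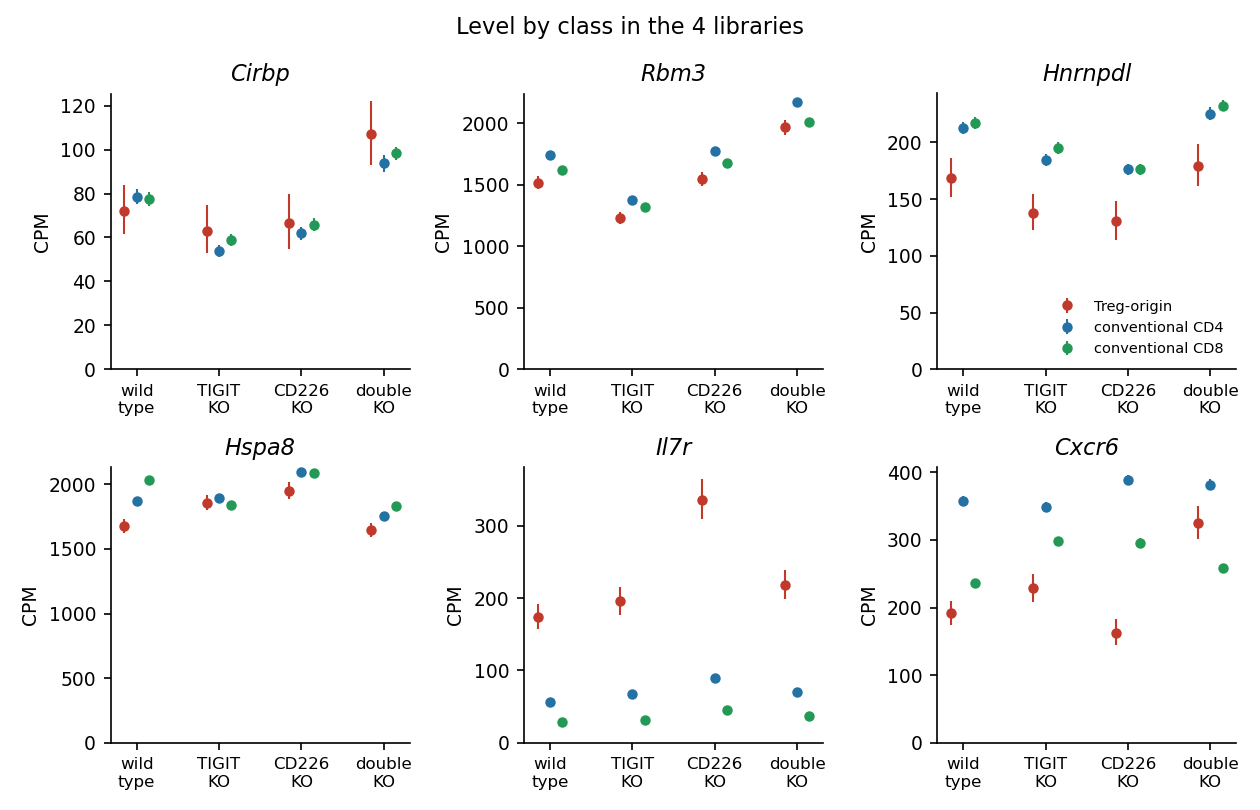
Level in CPM of 6 genes in the 4 libraries for Treg-origin (red), conventional CD4 (blue) and conventional CD8 cells (green), with 95% Poisson intervals. Cirbp, Rbm3 and Hnrnpdl move together in all 3 classes, Il7r is highest in the CD226-knockout library in each class, and Cxcr6 differs in Treg-origin cells while the other classes do not follow it.

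Several genes with a large Treg-origin difference were lower in conventional cells too. Il7r, the IL-7 receptor gene of resting and memory T cells, stood at 218 against 336 CPM in Treg-origin cells (0.649 [0.573, 0.736]), 69.8 against 90.2 CPM in CD4 and 36.4 against 45.4 CPM in CD8 cells. It was lower on both sides of -1.5 (0.707 and 0.668), and its Treg-origin level was 174 CPM in wild type and 195 CPM in TIGIT knockout, so the CD226-knockout library stood above the other 3. Ddit4, an mTORC1 inhibitor induced by stress, stood at 80.0 against 122 CPM (0.654 [0.530, 0.805]), 56.2 against 70.0 CPM in CD4 and 30.2 against 42.9 CPM in CD8 cells. Emb, which encodes the adhesion protein embigin, stood at 278 against 430 CPM (0.646 [0.579, 0.722]) and in CD8 cells at 120 against 148 CPM, but at 173 against 178 CPM in CD4 cells. Lgals7, which encodes galectin-7, was lower in Treg-origin cells (283 against 489 CPM, 0.578 [0.520, 0.644]), with 93.8 and 94.5 CPM in CD4 and 16.5 and 17.4 CPM in CD8 cells, where it missed the 20 CPM needed for the Treg-only rule. Dtx1, a Notch pathway ubiquitin ligase gene, had the reverse pattern, with 83.0 against 85.8 CPM in Treg-origin cells and 68.3 against 88.6 CPM and 45.0 against 62.4 CPM in CD4 and CD8 cells.

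Ribosome biogenesis genes were higher in all 3 classes. The 19 measured members of this list, which make and assemble ribosomal RNA, summed to 3181 against 2596 CPM in Treg-origin cells (1.23 [1.18, 1.27]), with ratios of 1.09 [1.08, 1.10] in CD4 and 1.162 [1.154, 1.171] in CD8 cells. All 3 classes were higher for 15 of the 19 genes (78.9%), against 27.4% of all genes compared. Ncl, the nucleolin gene, stood at 935 against 688 CPM (1.36 [1.26, 1.46]), 1113 against 932 CPM and 1229 against 973 CPM in Treg-origin, CD4 and CD8 cells. Nol11, a factor of ribosomal RNA transcription, was the highest member in Treg-origin cells at 48.3 against 26.3 CPM (1.84 [1.28, 2.66]), and Bop1 the lowest at 30.3 against 36.6 CPM (0.826 [0.573, 1.19]). Actin and S100 genes of the cytoskeleton were lower by about the same ratio in each class (0.953 in Treg-origin, 0.963 in CD4 and 0.953 in CD8 cells). Homing and adhesion genes, Cxcr6 included, had ratios of 0.952, 0.952 and 0.917 in the same order. Cxcr6 itself was higher in Treg-origin cells, and the list ratio there was 1.05 below a CD45 ratio of -1.5 and 0.878 above it. Glycolysis and mTORC1 genes (1.01, 0.995 and 0.994), the proteasome (1.02 in each class) and T cell receptor signalling (0.995, 0.999 and 0.976) were close to 1.

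The remaining lists moved through few members. The Th1 and chemokine genes summed to a ratio of 1.17 in Treg-origin, 1.08 in CD4 and 1.07 in CD8 cells, with Ccl3 highest and Ccl1 lowest in Treg-origin cells. That Treg-origin ratio lay above those on both sides of the CD45 limit of -1.5. Cytotoxicity genes (1.06, 0.909 and 1.11) ran from Prf1 down to the granzyme gene Gzmc (13.2 against 38.9 CPM, 60.3% in 5 cells). The genes of the Ccr9-expressing cluster and type 2 cytokines (0.936, 1.12 and 0.936) ran from the steroid synthesis gene Cyp11a1 (61.5 against 28.6 CPM, 2.15 [1.54, 3.05], 30.2% in 5 cells) to Il13. IL-2, cytokine receptor and SOCS genes (0.929, 1.02 and 0.983) ran from Stat5b (1.47 [0.943, 2.33]) to the common gamma chain gene Il2rg (216 against 291 CPM, 0.740 [0.650, 0.843]). Il2rg, which serves the IL-2 and IL-7 receptors, was also the lowest member of the list in CD4 and in CD8 cells. Il7r was lower in those wild-type cells as well. Naive and memory genes (0.896, 0.983 and 1.01) ran from Lef1 (1.22 [0.912, 1.64]) to Il7r, and immediate early genes (0.940, 1.01 and 0.980) from Egr1 (2.12 [1.34, 3.44], 53.7% in 5 cells) to Myc (0.7786 [0.5, 1.21]). TNF receptor costimulators (1.01, 1.147 and 1.003) ran from Tnfrsf4 to Tnfrsf25 (0.724 [0.508, 1.03]), and BCL2 family and death genes (1.05, 1.04 and 1.02) had Bcl2l11 as the lowest member (0.809 [0.502, 1.30]). Heat shock and chaperonin genes (1.02, 0.951 and 0.989) ran from Hspa9 (1.33 [1.03, 1.73]) to Hspa8, and sterol synthesis genes (0.942, 0.949 and 0.933) from Sc5d (1.18 [0.798, 1.75]) to Fdps (0.798 [0.602, 1.06]). The extremes of the lists near 1 were Hk1 (1.198 [0.898, 1.60]) and Slc2a3 (0.655 [0.468, 0.912]) for glycolysis, Psmb6 (1.151 [1.02, 1.30]) and Psmb9 (0.856 [0.787, 0.931]) for the proteasome, and Themis (1.36 [1.01, 1.86]) and Plcg1 (0.672 [0.435, 1.03]) for T cell receptor signalling. Among actin and S100 genes S100a10 was lowest (2613 against 3258 CPM, 0.802 [0.772, 0.833]), and among DNA replication genes Pola1 (0.871 [0.568, 1.34]).

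**Figure D5:**
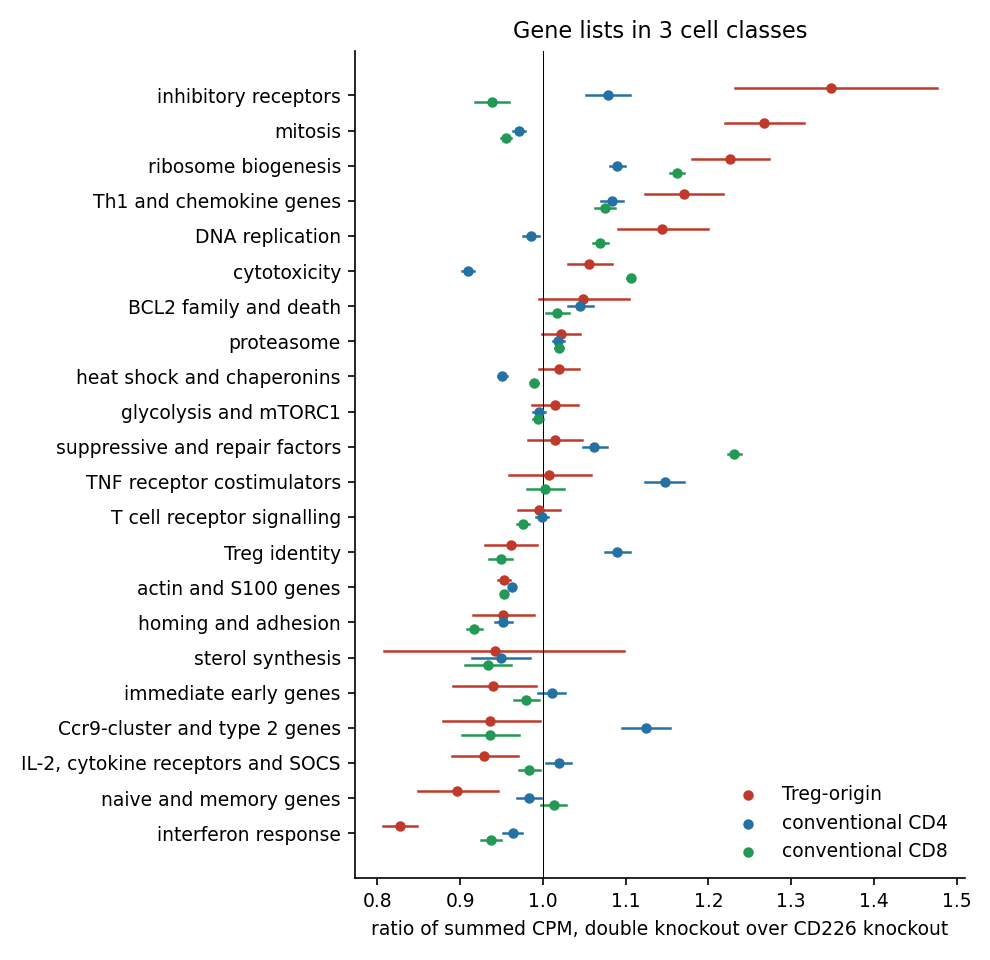
Ratio of summed CPM, double knockout over CD226 knockout, for each gene list with at least 5 measured members, in Treg-origin (red), conventional CD4 (blue) and conventional CD8 cells (green), with 95% counting intervals. The mitosis list lies above 1 in Treg-origin cells and below 1 in both conventional classes, ribosome biogenesis lies above 1 and the interferon response below 1 in all 3.

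The Treg-only genes were set beside TIGIT knockout over wild type, a pair with the same lanes that shares no library with the pair described. There 62 of 5180 genes lay past 1.5-fold higher (1.2%) and 48 lower (0.927%) in Treg-origin cells, with 29 Treg-only higher (0.626%) and 19 Treg-only lower (0.41%). Of the 84 Treg-only higher genes, 54 (64.3%) had a higher Treg-origin than conventional log2 ratio in that pair, against 57.4% of all genes compared, and of the 22 Treg-only lower genes 10 (45.5%) had a lower one, against 42.6%. Over all 4630 genes the correlation of this difference between the pairs was 0.05 (Pearson), a description over genes that share libraries and depth, and at a mean of at least 100 CPM in Treg-origin cells it was 0.10 over 1490 genes. Cxcr6 stood at 228 against 191 CPM in that pair, Plek at 22.0 against 21.2 CPM, Pdcd1 at 75.5 against 78.9 CPM, Lgals3 at 342 against 424 CPM and Ctla4 at 201 against 205 CPM. The mitosis list was higher there as well, at 3759 against 3219 CPM (1.17 [1.13, 1.21]). Whether the pairs differ was not tested, since each genotype is 1 library.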

How the data were processed

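The data are 10x Genomics 3' droplet libraries stained with oligonucleotide-tagged CD45.1 and CD45.2 antibodies, and the deposited values are UMI counts for each gene in each barcode. Per the submitters' processing notes, the authors made these counts with Cell Ranger 3.1.0 on mm10. Barcodes and gene names come from the deposited lists that belong to each matrix. Lane numbers are per the labels' descriptions, and whether the 3 pooled were donors or recipients is not given in the sources used here.

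Cells with at least 500 genes and at most 10% mt- UMIs were kept, and no doublet caller was run, so doublets remain. UMIs of a class were summed in Python 3.11.15 (numpy 2.4.6, scipy 1.17.1) and scaled to the class total. Log2 ratios used 1 CPM as a pseudocount, bracketed ratios none. Thinning to 2000 UMIs per cell left out 22 double-knockout and 17 CD226-knockout Treg-origin cells. The scripts were checked on simulated counts.

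The members, the 23 gene lists and the 9 marker lists were chosen with earlier results of these data known. Genes were named by rank: the 12 highest and 12 lowest Treg-only genes, up to 8 shared each way and up to 5 conventional-only each way, leaving out receptor and immunoglobulin segments, sex-linked, mt- and ribosomal protein genes, and genes with over 30% of UMIs in 5 cells. Genes in opposite directions had a rule of up to 6 each way. The highest and lowest members of each list, and all measured identity, suppressive and CD226 or TIGIT genes, were named too. Some genes that met these rules are not reported here. A list's summed level counts members whose mean in the class was 20 CPM or more, and that of a marker list counts every member. Alternatives were another cell filter, CD45 limits, scaling, pseudocount, minimum level, thinning, and the leaving out of the 1% of cells richest in UMIs.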

Additional observations from a re-analysis of the deposited data

Results flagged for a closer look

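The mitosis list stood apart because its summed ratio of double knockout over CD226 knockout was 1.267 in Treg-origin cells, 0.971 in CD4 and 0.955 in CD8 conventional cells. The ratio lay below 1 in Treg-origin cells with a CD45 ratio under -1.5, at 0.946 [0.899, 0.995], and the difference between classes was not tested.

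A further 5 lists had counting intervals that lay wholly on opposite sides of 1 in Treg-origin cells when the double knockout over CD226 knockout was set beside TIGIT knockout over wild type. The interferon response had ratios of 0.827 and 1.11 [1.09, 1.14], and ribosome biogenesis of 1.226 and 0.960 [0.927, 0.994]. Naive and memory genes had ratios of 0.896 and 1.06 [1.003, 1.12]. Cytotoxicity genes had ratios of 1.056 and 0.906 [0.886, 0.926]. The genes of the Ccr9-expressing cluster and type 2 cytokines had ratios of 0.936 and 1.10 [1.04, 1.16]. Each genotype is 1 library, so these differences were not tested, and the intervals cover counting error only.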

How the results depend on the processing

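With 1 library per genotype no replicate could be left out, and no paired analysis was possible because each group has 1 sample. The counts of genes depended on depth. A mean of at least 50 CPM gave 24 higher and 22 lower genes in Treg-origin cells, 14 Treg-only higher and 2 lower, 2 shared, and 1 gene past 1.5-fold in CD4 and 2 in CD8 cells. At 100 CPM, added after seeing the data, these were 6 and 8, 2 and 0, 1, 0 and 0. Without a minimum they were 1300 and 1646, 697 and 917, 58, 92 and 85. A pseudocount of 5 CPM gave 69 higher in Treg-origin cells, 47 and 11 Treg-only, and 2 in CD4 cells. No gene (0) was shared at 1.5-fold. At least 1000 genes and at most 5% mt- UMIs gave 7 shared and 41 Treg-only lower genes and CD8 shares of 56.9% in the double-knockout and 47.6% in the CD226-knockout library.

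Thinning to 2000 UMIs gave 359 higher and 296 lower genes, 197 and 112 Treg-only, 15 in CD8 cells, and list ratios of 0.803 for interferon response and 1.55 for inhibitory receptors. Tomm6 reversed to 1.28 there. Treg-origin cells with more Cd4 than Cd8 UMIs gave 313 and 238, 232 and 112 Treg-only, interferon response 0.747 and ribosome biogenesis 1.38. CD45 limits of -1.5 and 3 gave 325 and 232, 226 and 110 Treg-only, 8 shared, 11 in CD8 cells, and Treg-origin shares of 2.24% in the double-knockout and 1.45% in the CD226-knockout library. The list ratios there were 1.004 for DNA replication, 0.770 for interferon response, 1.51 for inhibitory receptors and 1.14 for ribosome biogenesis. Mitosis (0.946), cytotoxicity (0.941), Treg identity (1.04), homing and adhesion (1.05) and the gene Zfp263 (1.05) reversed. Those settings use fewer cells or UMIs.

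In subsets added after seeing the data, cells with a Foxp3 or Ikzf2 UMI gave 1.196 for mitosis and a reversed 1.01 for Treg identity. Foxp3 and Ikzf2 are members of the Treg identity list, so its ratio in both subsets is partly set by the choice of cells. Cells without such a UMI gave 1.61 for mitosis, 1.08 for DNA replication, 0.826 for Treg identity and 0.800 for interferon response. They gave 1.11 for inhibitory receptors and 1.17 for ribosome biogenesis, with naive and memory genes (1.01) and actin and S100 genes (1.02) reversed. The cause was not tested. Among the named genes, thinning also moved Plek (4.58), Cxcr6 (2.42), Kremen2 (0.939) and Hsd17b10 (0.424), the CD45 limits Cxcr6 (2.33), Cep55 (1.18), Fam220a (0.901) and Hsd17b10 (0.874), and the Cd4 limit Cd7 (0.568). In the other lists 33 values moved, and the other scaling moved all genes by -0.03 in Treg-origin cells (log2).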
